A study of Homo sapiens with 4 samples.

Results

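Gene expression in IMR90 cells at day 3 after infection with a retrovirus for H3.3cs1, which is histone H3.3 in its cleaved form, was compared with that of growing IMR90 cells. IMR90 is a line of human lung fibroblasts. The genes compared were those with a gene name and an FPKM (sequenced fragments relative to transcript length and to the size of the library) of at least 1 in either of the 2 libraries, which were 11565 of the 22679 named genes in the deposited files. The growing cells carried the empty retroviral vector pBabe and were harvested at day 13. The day 3 cells carried H3.3cs1 with a Flag tag at its C-terminal end, and a culture of the same kind was harvested at day 13. The remaining library came from cells in oncogene-induced senescence (OIS), which carried ER:RasV12, a tamoxifen-inducible H-RasV12 fusion, and received 10 nM tamoxifen for 8 days. All cells were at passage 16, and poly(A) RNA was sequenced.

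Each of the 4 groups had 1 library, so the differences describe these libraries, without a test, an SD or a p-value. The growing library was older in culture than the day 3 library, and cells with the empty vector at day 3 were not analysed here. Effects of the cleaved histone cannot be told apart from those of recent infection or of time in culture. H3.3cs1 at day 13 and OIS are given as further libraries beside the values of single genes.

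Histone H3.3 is the replacement form of histone H3, encoded by H3F3A and H3F3B and placed into chromatin outside DNA replication by the HIRA complex and by DAXX with ATRX. Proteases such as cathepsin L can remove part of its N-terminal tail, which carries many of the modified residues of H3. Senescence is a lasting exit from the cell cycle, and in fibroblasts it is known for loss of lamin B1, rise of the CDK inhibitors p21 and p16, and changed secretion of matrix, proteases and signalling factors.

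A pair of promoter motifs belongs to gene groups described further on. The cell cycle genes homology region (CHR, searched as TTTGAA) is a site of DREAM and of MuvB with B-MYB and FOXM1, complexes that hold cell cycle genes down in resting cells and raise them in G2 and mitosis. The interferon-stimulated response element (ISRE, searched as TTTC, any 2 bases and TTTC) is bound by interferon regulatory factors. The promoters are those of RefSeq (GRCh38.p14), from 250 bases before to 50 bases after the start of each gene, with the motif in capitals. They are shown for 3 cell division genes that fell and 3 interferon-stimulated genes that rose, chosen because they hold the motif. KIF20A, a mitotic kinesin that fell 5.43-fold, held no CHR.
PLK1, chr16:23678639-23678938, plus strand: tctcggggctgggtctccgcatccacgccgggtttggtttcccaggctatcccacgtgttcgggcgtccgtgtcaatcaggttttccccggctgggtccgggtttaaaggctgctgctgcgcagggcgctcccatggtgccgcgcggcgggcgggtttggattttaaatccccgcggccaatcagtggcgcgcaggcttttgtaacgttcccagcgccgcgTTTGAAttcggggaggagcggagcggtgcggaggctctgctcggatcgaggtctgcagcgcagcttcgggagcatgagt
CDC20, chr1:43358731-43359030, plus strand: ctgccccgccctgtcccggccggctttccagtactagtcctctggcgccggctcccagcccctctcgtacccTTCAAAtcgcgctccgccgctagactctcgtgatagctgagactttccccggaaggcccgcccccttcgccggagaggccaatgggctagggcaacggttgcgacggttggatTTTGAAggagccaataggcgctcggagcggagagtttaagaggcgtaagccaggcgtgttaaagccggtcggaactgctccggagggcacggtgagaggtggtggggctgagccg
CCNB2, chr15:59104896-59105195, plus strand: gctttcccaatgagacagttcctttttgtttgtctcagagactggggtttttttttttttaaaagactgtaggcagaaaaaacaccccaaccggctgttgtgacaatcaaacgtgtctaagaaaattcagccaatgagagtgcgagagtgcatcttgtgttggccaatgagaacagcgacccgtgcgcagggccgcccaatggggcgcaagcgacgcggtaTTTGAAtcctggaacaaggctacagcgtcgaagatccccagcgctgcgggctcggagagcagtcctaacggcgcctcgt
IFIT1, chr10:89392373-89392672, plus strand: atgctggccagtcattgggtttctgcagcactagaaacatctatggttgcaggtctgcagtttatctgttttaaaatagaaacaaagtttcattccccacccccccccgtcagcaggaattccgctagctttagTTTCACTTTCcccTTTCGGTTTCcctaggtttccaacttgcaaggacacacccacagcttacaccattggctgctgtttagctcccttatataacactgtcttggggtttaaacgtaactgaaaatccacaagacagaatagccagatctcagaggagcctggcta
IFI6, chr1:27672143-27672442, minus strand: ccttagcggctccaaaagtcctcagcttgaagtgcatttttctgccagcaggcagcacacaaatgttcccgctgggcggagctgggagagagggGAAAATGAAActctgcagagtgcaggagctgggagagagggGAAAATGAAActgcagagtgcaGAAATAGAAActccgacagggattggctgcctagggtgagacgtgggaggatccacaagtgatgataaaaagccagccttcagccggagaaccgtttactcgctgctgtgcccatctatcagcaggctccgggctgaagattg
ISG15, chr1:1013247-1013546, plus strand: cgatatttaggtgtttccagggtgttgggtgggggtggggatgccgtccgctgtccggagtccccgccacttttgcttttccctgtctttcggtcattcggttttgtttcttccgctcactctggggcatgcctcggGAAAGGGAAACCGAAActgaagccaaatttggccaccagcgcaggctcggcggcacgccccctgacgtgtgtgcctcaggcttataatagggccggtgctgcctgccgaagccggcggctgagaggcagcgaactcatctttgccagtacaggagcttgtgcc

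In PLK1 and in CCNB2 the CHR letters began 29 bases before the start site, in the direction of the gene. CDC20 held them 65 bases before the start site in that direction and 178 bases before it on the opposite strand. IFIT1 held 2 ISRE matches, 116 and 103 bases before its start site. IFI6 held 3 on the opposite strand, and in ISG15 the 2 matches, also on the opposite strand, overlapped. Searched on both strands, CHR was in 9.60% of the 8813 promoters of genes compared that had an entry, and in 15.4% of all 27305 promoters of the table. Of the members of the cell division lists described further on, 92 had an entry and 52 (56.5%) held CHR. The share was 42 of 65 (64.6%) among those at least 2-fold lower at day 3 and 10 of 27 (37.0%) among the rest. ISRE was in 2.68% of the promoters of genes compared and 3.65% of all promoters. It was in 16 of 21 interferon-stimulated genes (76.2%), namely in 7 of the 9 that rose at least 2-fold and in 9 of the 12 that did not. CHR and ISRE matches overlapped in 2 of the 8813 promoters. These are matches of letters and not measured sites.

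Differences are of log2(FPKM + 1) between day 3 and growing, and folds are computed from them, so the folds of genes with low values are too small. A gene is said to have risen or fallen where its difference was at least 2-fold. Where 4 values of a gene are given, they are FPKM in growing, H3.3cs1 day 3, H3.3cs1 day 13 and OIS, in that order. Between 11063 and 11271 genes reached an FPKM of 1 in a library. Depth relative to the growing library, read from the smallest values, was about 96.1% at day 3. Unnamed loci, which were left out, held 49.0% of the summed FPKM in growing and 57.9% at day 3, so the named genes of the day 3 library summed to 83.6% of those of growing. Rescaling the named genes to the same sum adds 0.26 to the log2 difference of a highly expressed gene. The header lines of the files hold no field for the locus names and are shifted, so each file was assigned to its sample by GEO's record. HRAS, the gene of the OIS construct, was at 47.4, 49.8, 41.9 and 3153 FPKM, so the file recorded for OIS held the high value. No gene could check in the same way which file is day 3 and which day 13 of H3.3cs1, and that rests on GEO's record.

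At day 3, 171 genes (1.48% of those compared) were at least 2-fold higher than in growing and 483 (4.18%) were at least 2-fold lower, together 654 (5.65%). The counts of list members given further on are to be read beside these shares. The median difference over all genes was -0.03, and 46.6% of them lay above 0. With the named genes rescaled to the same sum, the median was 0.20 and the split was 316 higher (2.7%) and 338 lower (2.88%), so that 48.3% of the changed genes were higher in place of 26.1%. At least 4-fold higher were 29 genes and at least 4-fold lower 91, which became 14 and 65 without short RNAs. Short RNAs were recognised by the start of the name. Joined loci that name a short RNA later, such as NRF1 with RNA5SP244, thus stayed in. With short RNAs left out by this rule, the 448 genes that fell had a median of 17.2 FPKM in growing and 5.22 at day 3. They stood at 4.49 in H3.3cs1 day 13 and 4.05 in OIS. The 152 genes that rose had a median of 2.11 FPKM in growing, 7.22 at day 3, 2.92 at day 13 and 4.0 in OIS. Both sets were picked by their growing and day 3 values, so their medians in these libraries partly follow from the rule. Near the threshold, DPP4 (1.003) was counted as higher and VAT1 (0.997) was not, while HNRNPH3 (-1.003) was counted as lower and NRXN3 (-0.998) was not. Of the compared genes, 373 passed the filter on low values through day 3 alone and 294 through growing alone. Of the 373, 63 rose, and of the 294, 76 fell. Among the 10898 genes that passed it in both libraries 108 rose and 407 fell.

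**Figure D1:**
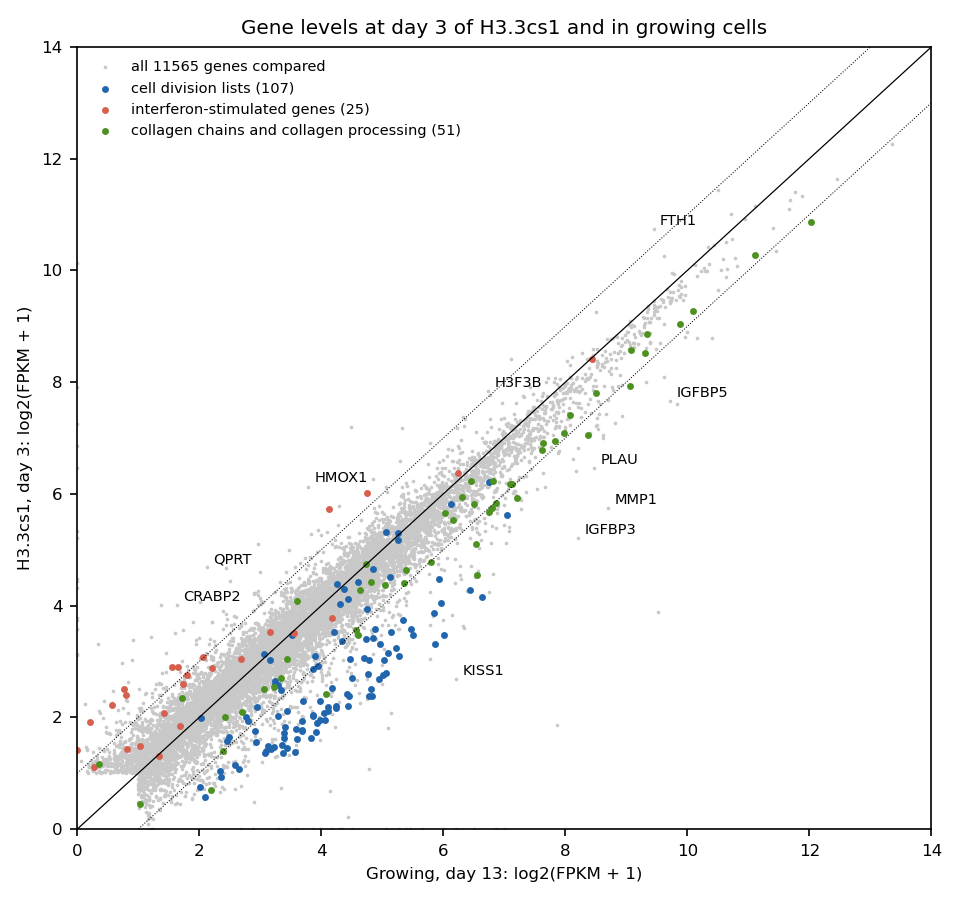
Each point is a gene, with log2(FPKM + 1) in growing on the x axis and at H3.3cs1 day 3 on the y axis. The solid line marks equal values and the dotted lines 2-fold. The 107 cell division genes (blue) lie mostly below the lower dotted line, the 25 interferon-stimulated genes (red) mostly above the solid line, and collagen genes (green) below it at the upper end.

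Most genes of mitosis and division fell at day 3. Across 5 lists of division genes, 107 of 110 listed genes were compared, of which 77 fell and 0 rose, against 4.18% and 1.48% of all genes. Their median difference was -1.65, and -1.44 with the same sum, where 75 fell. Their median level was 16.2 FPKM in growing, 4.67 at day 3, 1.41 at day 13 and 1.24 in OIS, so day 3 lay between growing and the other libraries. In bulk RNA, fewer dividing cells and less RNA per dividing cell cannot be told apart.

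Among mitotic kinases and regulators, 18 of 23 compared genes fell, with a median of -1.75. PLK1, the polo kinase of mitotic entry and spindle assembly, was at 57.4, 8.9, 2.44 and 0.647 FPKM and fell 5.91-fold. CDK1, the kinase that drives entry into mitosis, was at 31.3, 5.74, 1.07 and 0.442 FPKM and fell 4.8-fold. AURKB, the kinase that corrects chromosome attachment, was at 29.8, 5.42, 1.43 and 0.806 FPKM and fell 4.8-fold. Each of these kinases was highest in growing and lowest in OIS, with day 3 next below growing. The B-type cyclins followed, CCNB1 with 61, 15.5, 5.62 and 2.71 FPKM and a fall of 3.77-fold. CCNB2 was at 31.7, 7.15, 2.14 and 0.524 FPKM and fell 4.01-fold. The transcription factors that raise genes of this kind fell too. MYBL2 (B-MYB) was at 13.3, 2.1, 0.727 and 0.187 FPKM, a fall of 4.61-fold, and FOXM1 fell 3.37-fold from 26.5 to 7.16 FPKM.

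The kinetochore, the protein plate that ties chromosomes to the spindle, had 24 of 29 genes lower and a median of -1.62. BIRC5, which encodes survivin of the chromosomal passenger complex, was at 32.3, 5.92, 1.33 and 0.704 FPKM and fell 4.81-fold. NUF2 and NDC80, partners in the complex that grips microtubules, fell 4.55-fold and 4.07-fold. CENPA, the centromeric form of H3, was at 9.51, 2.09, 0.438 and 0.303 FPKM and fell 3.4-fold. The spindle, kinesin and cytokinesis list had 23 of 26 genes lower and the lowest median of all 58 lists, -1.85. KIF20A, a kinesin of the central spindle, was at 27.4, 4.23, 0.855 and 0.178 FPKM and fell 5.43-fold. Its fall was the largest of that list, followed by that of KIFC1, a minus-end kinesin, at 5.27-fold. PRC1, which bundles the microtubules of the central spindle, fell 4.55-fold from 37.8 to 7.52 FPKM.

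Only part of the anaphase-promoting complex list moved, and the members that did were its cell cycle regulated partners. Of 19 genes 6 fell, and the median was -0.17, or 0.08 with the same sum. CDC20, the activator that starts anaphase, was at 63.8, 10.1, 2.36 and 0.84 FPKM and fell 5.81-fold. UBE2C, the ubiquitin-conjugating enzyme of the complex, was at 98.6, 16.8, 3.73 and 2.16 FPKM and fell 5.58-fold. PTTG1 (securin), which holds separase inactive, fell 4.44-fold to 18.4 FPKM. The others that fell were FBXO5, ESPL1 and UBE2S, and the 13 genes within 2-fold included the core subunits. Of 10 condensin and topoisomerase II genes 6 fell, with TOP2A, which untangles sister chromatids, at 44.2, 10.1, 1.41 and 1.25 FPKM. This was a 4.07-fold fall.

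DNA replication genes fell less far than those of mitosis. Of 45 genes of the replication origin and fork, 21 fell, with a median of -0.96, and with the same sum 11 fell with a median of -0.75. MCM7, a subunit of the replicative helicase, was at 55.8, 13.1, 8.11 and 11.9 FPKM and fell 4.02-fold. CDC45, which activates that helicase, was at 8.44, 1.45, 0.475 and 1.13 FPKM and fell 3.86-fold. MCM7 at day 3 was little above its level in OIS, while CDC45 stood above both of the remaining libraries. In the supply of nucleotides 5 of 15 genes fell. RRM2, the S phase subunit of ribonucleotide reductase, was at 62.5, 10.3, 2.41 and 3.74 FPKM and fell 5.62-fold. TK1, thymidine kinase, was at 63.1, 12.3, 4.82 and 2.08 FPKM and fell 4.81-fold. RRM2B, a subunit that can take the place of RRM2, moved the other way without reaching 2-fold, at 12.4, 24.2, 14.7 and 48.2 FPKM. With the same sum its difference was 1.16. Among 34 repair and checkpoint genes 11 fell.

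The factors that set entry into the cell cycle were mostly within 2-fold. Of 22 G1 cyclin, E2F and RB family genes 2 fell, CDK2 (38.3, 13.3, 10.9 and 47.2 FPKM) and CCNE2, the cyclin E of S phase entry (3.66, 0.778, 0.579 and 0.296 FPKM). Over all genes 4.18% fell, and CCNE2 passed the filter through growing alone. RB1, the retinoblastoma gene, was at 11.3, 11.5, 7.86 and 13.8 FPKM. Of 8 CDK inhibitor genes 2 fell and 0 rose, with a median of -0.04 that was 0.18 with the same sum. Those that fell were CDKN3, a phosphatase of CDKs that is itself raised in mitosis (23.5, 4.39, 1.68 and 0.73 FPKM), and CDKN2C (p18), at 13.4, 3.3, 0.592 and 0.615 FPKM. CDKN1A (p21) was at 363, 612, 859 and 1500.2 FPKM, a day 3 difference of 0.75 that was 1.01 with the same sum and 1.09 after quantile normalization, both past 2-fold. CDKN2A, the gene of p16 and ARF, was at 18.1, 25.3, 43.5 and 59.8 FPKM, a difference of 0.46. CDKN2B (p15) was at 3.43, 4.62, 20.5 and 37.3 FPKM, a difference of 0.34. For p21, p16 and p15 the day 3 value was the lowest of the 3 treated libraries and above growing.

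**Figure D2:**
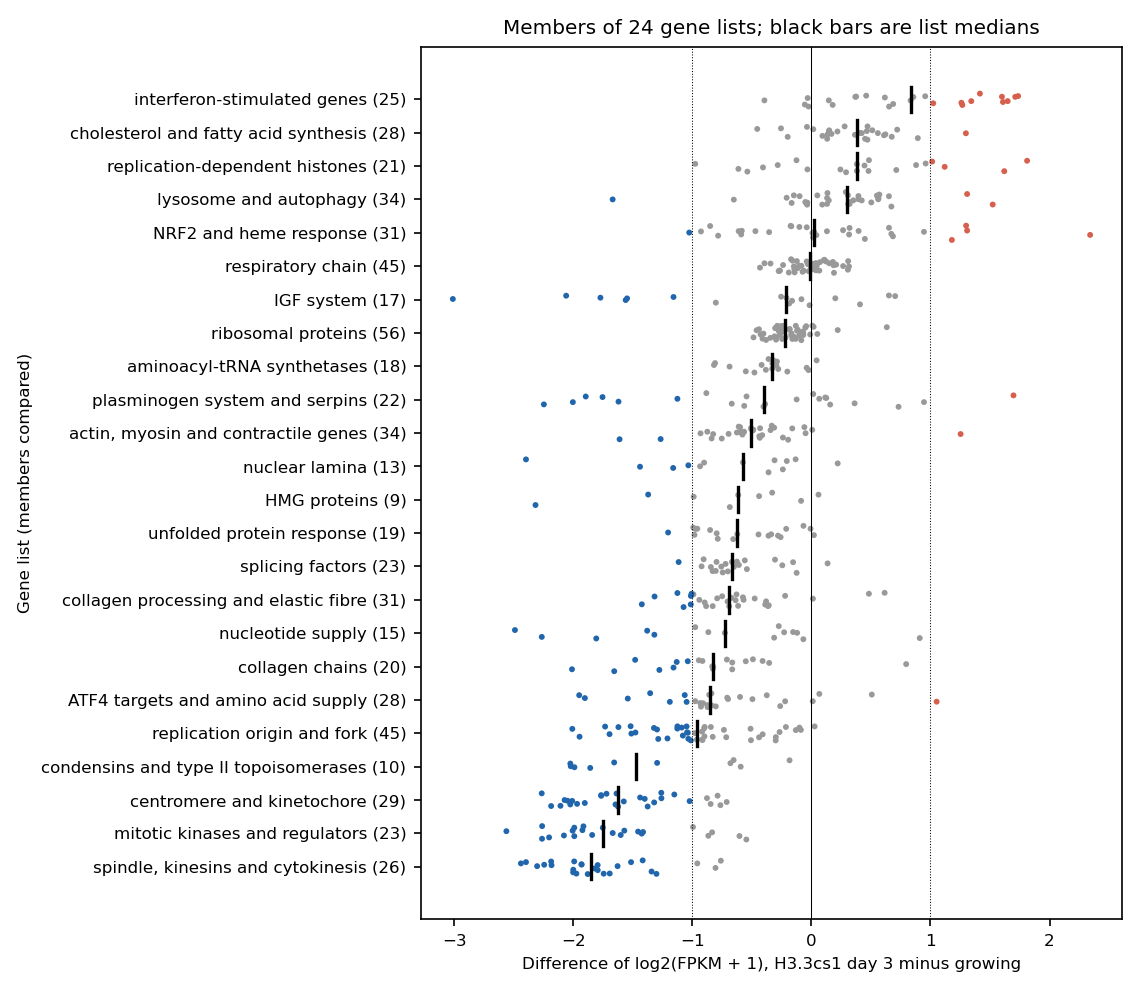
Each point is a gene of 1 of 24 lists, placed by its difference of log2(FPKM + 1) between H3.3cs1 day 3 and growing, with genes at least 2-fold lower in blue, at least 2-fold higher in red and the others in grey. Black bars are list medians, which run from -1.85 for spindle genes to 0.83 for interferon-stimulated genes.

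Chromatin genes of replication and of centromeres fell, and the H3.3 genes differed from each other. H3F3B was at 105, 229, 449.7 and 90.5 FPKM and rose 2.16-fold, while H3F3A was at 190.5, 129.5, 132 and 236 FPKM, a difference of -0.55. Which of these genes the construct was made from is not stated in the labels, so H3F3B was not used as a check of the construct. A value per gene may include transcripts of the construct beside those of the cell. For the rise of H3F3B the construct and the cell's own gene cannot be told apart. CTSL1, the gene of cathepsin L, was at 68.1, 66.4, 57.8 and 101 FPKM, a difference of -0.04. Of 10 replacement histone genes 2 fell, CENPA and H2AFZ, the gene of H2A.Z. H2AFZ was at 278, 97.5, 76.5 and 124 FPKM and fell 2.83-fold.

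Histone chaperones that act at replication and at centromeres fell, which were 5 of 22 chaperone genes. HJURP, which places CENP-A at centromeres, was at 15.7, 2.88, 0.861 and 0.50 FPKM and fell 4.31-fold. ASF1B, an H3-H4 carrier of S phase, was at 11.8, 2.89, 0.312 and 0.73 FPKM and fell 3.3-fold. The rest were NASP (2.47-fold), CHAF1B (2.45-fold) and CHAF1A (2.02-fold), the last with a difference of -0.79 with the same sum. The HIRA and DAXX with ATRX genes did not change by 2-fold: HIRA was at 10.6, 11.4, 8.96 and 10.8 FPKM, DAXX at 47.3, 39.8, 38.5 and 113 FPKM and ATRX at 8.43, 9.58, 8.29 and 10.6 FPKM. HMGB2, a DNA-bending protein lost in senescent fibroblasts, was at 69.7, 13.2, 6.75 and 7.26 FPKM and fell 4.98-fold. HMGB1, its relative and also an alarm signal outside cells, was at 111, 42.2, 27.4 and 39.2 FPKM and fell 2.59-fold. Both were lower at day 13 and in OIS than at day 3.

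LMNB1, the gene of lamin B1, was at 30.8, 5.03, 1.09 and 0.989 FPKM and fell 5.27-fold, the largest fall among 13 lamina genes, of which 4 fell. TMPO, which encodes the lamina-associated proteins LAP2, fell 2.71-fold from 33.3 to 11.6 FPKM. SYNE2 and SUN2, of the bridge between nucleus and cytoskeleton, fell 2.24-fold and 2.05-fold, and SUN2 had a difference of -0.79 with the same sum. SYNE2 passed the filter through growing alone. Of 25 heterochromatin and Polycomb genes 3 fell. EZH2, the H3K27 methyltransferase, was at 11.9, 3.07, 1.33 and 1.99 FPKM and fell 3.17-fold. UHRF1, which brings DNMT1 to newly made DNA, was at 37.2, 10.9, 4.81 and 5.26 FPKM and fell 3.2-fold. DNMT1, the maintenance DNA methyltransferase, fell 2.32-fold, and its difference was -0.97 with the same sum.

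The replication-dependent histone genes compared did not fall by 2-fold with the replication genes. Of 63 listed, 21 were compared, 35 were below 1 FPKM in both libraries and the rest were in joined loci or had no line of that name. Of those compared 4 rose and 0 fell, against 1.48% and 4.18% of all genes, with a median of 0.38. HIST1H2BE, at 1.22, 0.129, 1.39 and 0 FPKM, was short of 2-fold on this scale, with a difference of -0.98. HIST1H4H was at 6.94, 23.4, 45 and 15.1 FPKM and rose 3.07-fold. HIST1H2BG was at 2.73, 12.1, 6.27 and 6.93 FPKM and rose 3.51-fold. Most transcripts of these genes end without a poly(A) tail, and the libraries were made from poly(A) RNA, so the values cover only their polyadenylated part.

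**Figure D3:**
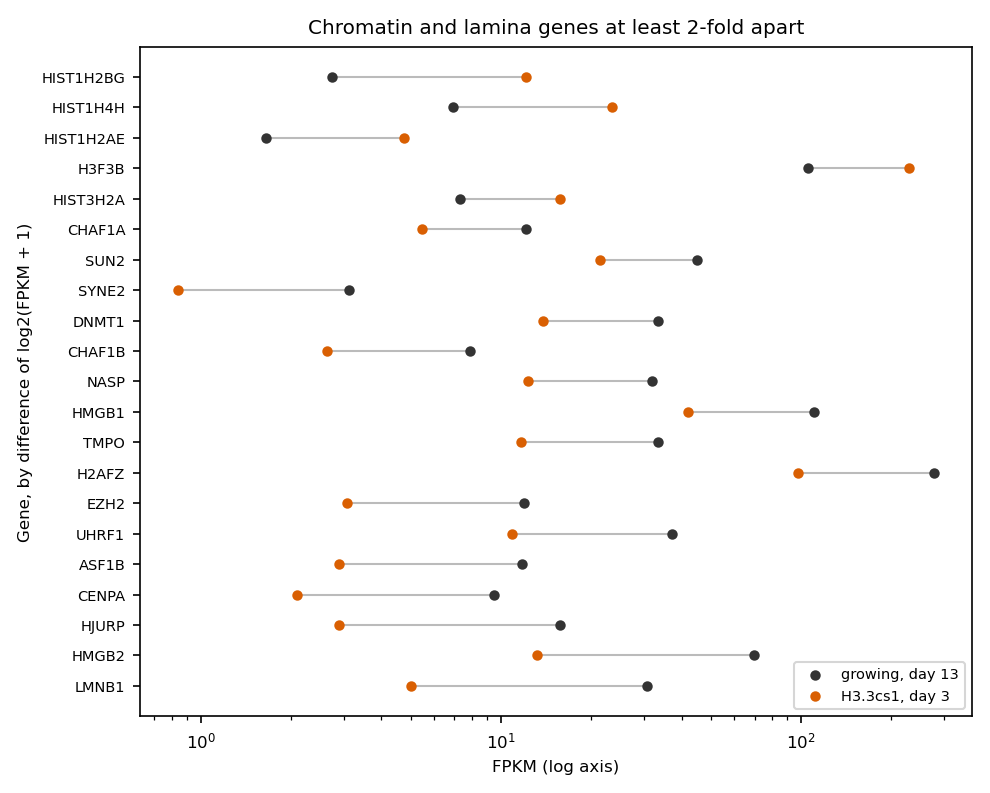
The 21 chromatin and lamina genes at least 2-fold apart, with FPKM on a log axis, growing in black and H3.3cs1 day 3 in orange, 1 library each. LMNB1, HJURP and HMGB2 have the widest falls, and 5 genes including H3F3B and 4 replication-dependent histones lie higher at day 3. The value of H3F3B may include transcripts of the construct.

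A few genes of heme and iron handling were higher at day 3. HMOX1, the heme-degrading enzyme and a target of NRF2 and BACH1, was at 12.8, 69, 5.56 and 4.74 FPKM and rose 5.07-fold. Its level at day 3 was the highest of the 4 libraries, and those of day 13 and OIS were below growing. FTH1, the ferritin heavy chain that stores iron, was at 698, 1719, 594 and 1672 FPKM and rose 2.46-fold. FTL, the ferritin light chain, was at 1447, 2787, 1793 and 2478 FPKM, a difference of 0.95 that was 1.20 with the same sum. SQSTM1 (p62), a receptor of selective autophagy that also activates NRF2, was at 137, 341, 166 and 198 FPKM and rose 2.48-fold. Of the 31 compared genes of the NRF2 and heme list 4 rose and 1 fell, against 1.48% and 4.18% of all genes, and the median was 0.02. AKR1C1 was the other gene that rose (1.11, 3.78, 3.04 and 4.38 FPKM) and MAFK the gene that fell, with a difference of -1.03 that was -0.79 with the same sum. Other members stayed within 2-fold, such as NQO1 (48.8, 32.2, 27.5 and 46.9 FPKM) and GCLM (8.42, 8.57, 5.97 and 9.68 FPKM). The antioxidant response element, searched as TGACNNNGC on both strands, was in 5 of 23 promoters of the list (21.7%) and in 15.3% of promoters of genes compared. It was in 0 of the 2 members past 2-fold that had an entry and in 5 of the 21 within 2-fold. HMOX1 had no entry.

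Genes of lipid export and lysosomal lipid breakdown were among the 15 largest rises. ABCA1, which exports cholesterol to apolipoproteins, was at 4.69, 20.6, 5.15 and 15.8 FPKM and rose 3.8-fold. APOE, an apolipoprotein that takes up such cholesterol, was at 3.01, 15.8, 6.96 and 6.13 FPKM and rose 4.18-fold. ASAH1, the acid ceramidase of the lysosome, was at 39.2, 143, 145 and 91 FPKM and rose 3.59-fold. ABCA1 and APOE were highest at day 3, and ASAH1 was as high at day 13. CERS4, a ceramide synthase, was at 0.657, 6.83, 2.53 and 2.05 FPKM and rose 4.73-fold. Of 34 lysosome and autophagy genes 2 rose and 1 fell, against 1.48% and 4.18% of all genes. In that list 24 lay above 0, against 46.6% of all genes, with a median of 0.30 against -0.03. NPC1, the lysosomal cholesterol transporter, was at 4.23, 14, 6.12 and 22.1 FPKM and rose 2.87-fold. CTSC, cathepsin C, was the gene that fell, at 109, 33.7, 86.9 and 59.2 FPKM. In cholesterol and fatty acid synthesis 1 of 28 genes rose, against 1.48% of all genes, and 24 lay above 0, with a median of 0.39. It was SCD, which desaturates fatty acids, at 37.9, 94.8, 47.6 and 33 FPKM, a rise of 2.46-fold.

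Interferon-stimulated genes were higher at day 3 at low levels. Of 40 listed genes 25 were compared and 13 were below 1 FPKM in both libraries. Of those compared 10 rose, against 1.48% of all genes, 0 fell and the median was 0.83. The filter favours this outcome, since 7 of the 25 reached 1 FPKM at day 3 alone, 5 of which rose, and among the 18 that reached it in both libraries 5 rose. IFI6, a mitochondrial protein that limits cell death, was at 16.4, 52.1, 21.5 and 31.8 FPKM and rose 3.05-fold. ISG15, a ubiquitin-like modifier, was at 25.9, 63.7, 37.2 and 65.6 FPKM and rose 2.41-fold. Day 3 was the highest library for IFI6, while ISG15 was as high in OIS. IFIT1, which binds foreign 5′ ends of RNA, was at 0.703, 4.67, 0.354 and 0.201 FPKM and rose 3.33-fold. MX1, a GTPase that blocks viruses, was at 0.158, 2.79, 0.39 and 0.222 FPKM and rose 3.28-fold. SAMD9 was at 0.49, 3.67, 0.241 and 1.7 FPKM and rose 3.14-fold. For IFIT1 and MX1 the other 3 libraries were below 1 FPKM. PARP9 and DTX3L, partners in an ADP-ribosylating complex, rose 2.54-fold and 2.03-fold. IFI27, counted among the 10, was listed at 0 in growing and at 1.67 FPKM at day 3, so no fold is given.

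The sensors and carriers of the interferon response were mostly within 2-fold. Of 30 compared genes 1 rose, against 1.48% of all genes. It was EIF2AK2, the RNA-activated kinase PKR, at 7.08, 15.2, 4.6 and 14.2 FPKM. IFIH1 (MDA5), a sensor of long double-stranded RNA, was at 0.255, 1.49, 0.244 and 0.337 FPKM, a difference of 0.99 that was 1.15 with the same sum. TMEM173 (STING) was at 21.3, 11.4, 16 and 39.8 FPKM and MB21D1 (cGAS) at 3.16, 1.71, 0.723 and 1.54 FPKM, differences of -0.84 and -0.62. Of 13 genes of MHC class I presentation 1 rose, against 1.48% of all genes, namely the immunoproteasome subunit PSMB8 (10.9, 25, 8.58 and 21.3 FPKM). Of 16 markers of leukocytes 1 was compared, CD4 at 12.5, 8.67, 11.2 and 18.6 FPKM. PTPRC, the pan-leukocyte marker CD45, was at 0.0193 FPKM at day 3.

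BTG2, an antiproliferative gene, was at 3.6, 12.1, 3.44 and 9.36 FPKM and rose 2.84-fold, so that it was higher at day 3 than in the other libraries.

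CRABP2 and QPRT, of retinoic acid handling and of NAD supply, were among the 15 largest rises. CRABP2, which carries retinoic acid to its receptors, was at 2.1, 15.1, 6.16 and 7.71 FPKM and rose 5.21-fold. QPRT, an enzyme of NAD synthesis from tryptophan, was at 3.36, 24.8, 13 and 19 FPKM and rose 5.91-fold. Both were highest at day 3, with day 13 and OIS between it and growing. Of 19 compared genes of the prostaglandin, vasoactive and NAD list 1 rose, QPRT, and 2 fell, against 1.48% and 4.18% of all genes. Of 12 compared genes of the retinoic acid list 3 rose, against 1.48% of all genes. Beside CRABP2 they were ALDH1A3, which makes retinoic acid (0.604, 2.4, 0.503 and 3.2 FPKM), and RARRES2 (0.38, 2.34, 2.07 and 3.16 FPKM). ALDH1A3 and RARRES2 passed the filter through day 3 alone. TGM2 fell, at 144, 65, 75.3 and 440.3 FPKM, with a difference of -0.88 with the same sum. Among the remaining largest rises were FOLR3, a folate receptor, at 1.58, 15.2, 2.91 and 4.72 FPKM, FBXO32, the ubiquitin ligase atrogin-1, at 0.867, 7.13, 1.82 and 10.4 FPKM, and MME (neprilysin), a peptidase of the cell surface, at 1.32, 9.83, 0.659 and 59.9 FPKM. RHOD (3.76-fold), SBSN (5.54-fold), APCDD1L (4.39-fold) and the readthrough locus GJA9-MYCBP (7.84-fold) complete the 15 with THBS2. GJA9-MYCBP shares its exons with MYCBP, so its value may depend on how reads were divided. The largest rise among joined loci was that of LOC100130872 with SPON2, from 21.5 to 146 FPKM.

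**Figure D4:**
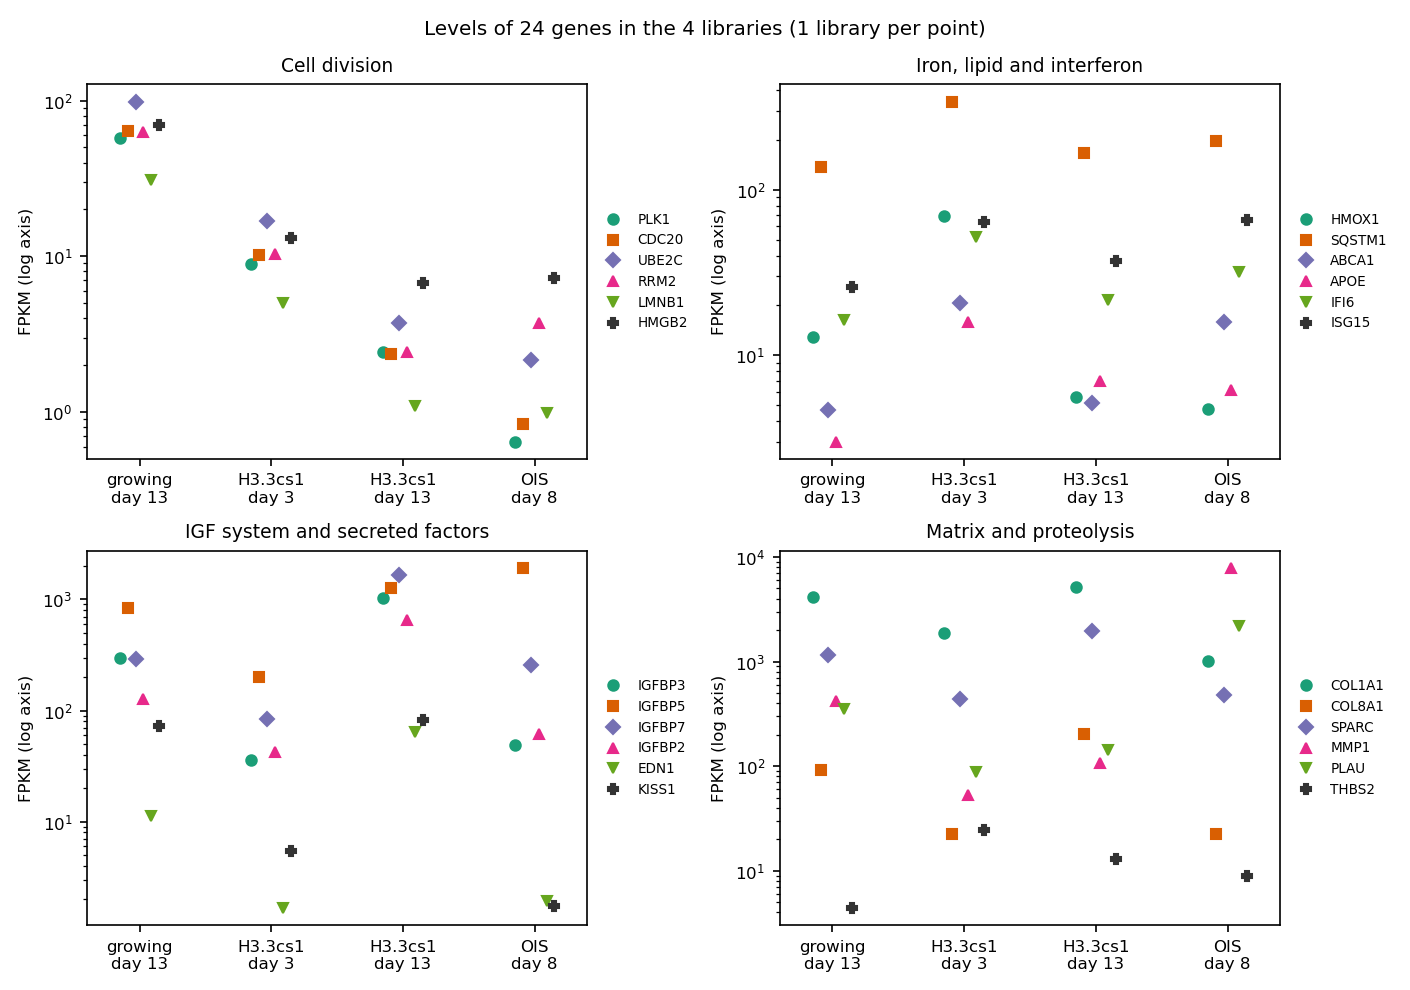
FPKM of 24 genes on log axes in the 4 libraries, 1 point per library and gene, in 4 panels. Cell division genes step down from growing to H3.3cs1 day 3 and further in the 2 remaining libraries, HMOX1 is high at day 3 alone, and the IGF binding proteins shown are low at day 3 and high at day 13 of H3.3cs1.

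Of the IGF binding proteins, secreted carriers that hold insulin-like growth factors, IGFBP2, IGFBP3, IGFBP4, IGFBP5 and IGFBP7 fell at day 3, while IGFBP6 was at 81.5, 80.7, 58.3 and 45.1 FPKM, a difference of -0.02. IGFBP3, the main carrier in blood, was at 296, 35.8, 1023 and 48.8 FPKM and fell 8.07-fold. IGFBP5 was at 844, 202, 1254 and 1917 FPKM and fell 4.17-fold. IGFBP7, a secreted protein tied to senescence, was at 289, 84, 1661 and 257 FPKM and fell 3.42-fold. For IGFBP3 and IGFBP7 day 3 was below growing and day 13 of H3.3cs1 above it. IGFBP2 was at 127, 42.6, 657 and 62.1 FPKM and fell 2.92-fold. IGFBP4 was at 996, 446, 1322 and 1342 FPKM and fell 2.23-fold, and its difference was -0.90 with the same sum. In all 6 of 17 IGF system genes fell, with STC1 as the remaining one, and 0 rose, against 4.18% and 1.48% of all genes. The list median was -0.21, or 0.04 with the same sum.

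Other secreted factors with large falls were of several kinds. KISS1, the precursor of kisspeptin, was at 73, 5.43, 81.5 and 1.73 FPKM and fell 11.5-fold, the largest fall among single genes with a value in each library and 5 FPKM or more in the higher, leaving aside short and uncharacterised RNAs. SCUBE3, a secreted protein of the cell surface, was at 34.3, 3.23, 12.7 and 15.2 FPKM and fell 8.35-fold. TNFRSF11B (osteoprotegerin), the decoy receptor of RANKL, was at 54.3, 7.28, 63 and 108 FPKM and fell 6.68-fold. At day 13 of H3.3cs1 KISS1 and TNFRSF11B were above growing. PTX3, a pentraxin of innate defence, was at 79.3, 11.4, 38.5 and 122 FPKM and fell 6.49-fold. EDN1, endothelin, was at 11.2, 1.67, 63.8 and 1.94 FPKM and fell 4.55-fold. Of 33 listed cytokines and chemokines 16 were compared and 16 were below 1 FPKM in both libraries. Of those compared 2 fell and 0 rose, against 4.18% and 1.48% of all genes. CCL2, which draws monocytes, was at 76.1, 22.3, 130.1 and 57.1 FPKM and fell 3.3-fold. IL11 fell too, at 21.6, 8.43, 11 and 1055 FPKM. IL6 was at 3.26, 1.36, 7.54 and 196 FPKM and IL8 at 3.65, 4.19, 2.4 and 6433 FPKM, with differences of -0.86 and 0.16. ANO1, a chloride channel, and LCE2A, a gene of the skin's cornified envelope, were also among the 15 largest falls, from 9.16 to 0.671 FPKM and from 6.43 to 0.395 FPKM. IL6 was past 2-fold with the highest line of its symbol in place of the sum (-1.13) and with a pseudocount of 0.1 (-1.21).

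A few growth factor genes outside the IGF system changed, where 4.18% of all genes fell and 1.48% rose. Of 21 compared genes of the FGF, PDGF, VEGF, HGF and EGF systems 3 fell: FLT1, a receptor of VEGF (9.41, 1.59, 5.91 and 10.2 FPKM), FGF5 (72.1, 20.1, 32.4 and 23.9 FPKM) and HBEGF, a ligand of the EGF receptor (20.5, 6.09, 25.8 and 38.8 FPKM). VEGFB was at 19.1, 33.7, 23.9 and 31.5 FPKM, and it was past 2-fold higher with the same sum, at 1.04. In the Wnt list 3 of 18 fell and 1 rose. The receptor FZD7 was at 94.7, 37.8, 110.1 and 15.5 FPKM and fell 2.46-fold. The receptor ROR2 was at 0.692, 4.29, 1.37 and 0.493 FPKM and rose 3.13-fold, and it passed the filter through day 3 alone. WNT5A and the antagonist DKK1 fell 2.11-fold and 2.3-fold, and both were within 2-fold with the same sum. In the TGF-beta and BMP list 2 of 34 compared genes fell, FSTL3 (2.56-fold) and GDF6 (2.43-fold), and the other 32 were within 2-fold. That share was near the one over all genes, and GDF6 passed the filter through growing alone. FOSL1, an AP-1 subunit downstream of ERK, was at 163, 64.7, 70.6 and 103 FPKM and fell 2.49-fold, the 1 gene of 26 ERK output and immediate early genes to fall, and KLF4 rose (2.41, 5.89, 2.04 and 1.21 FPKM). The share of the ERK list that fell was also near that of all genes.

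Genes of the extracellular matrix were lower at day 3. Of 78 compared genes in 4 lists of collagens, their processing, proteoglycans and matricellular proteins, 17 fell and 4 rose. Over all genes 4.18% fell and 1.48% rose. The median was -0.67, against -0.03 over all genes. With the same sum 9 fell, against 2.88% of all genes, and the median was -0.43, against 0.20. COL1A1, the main chain of type I collagen, was at 4156, 1862, 5172 and 1012 FPKM and fell 2.23-fold, and its difference was -0.90 with the same sum. COL8A1, a short-chain collagen, was at 92.8, 22.3, 205 and 22.7 FPKM and fell 4.03-fold. COL11A1, a chain of a minor fibrillar collagen, was at 15.9, 4.36, 84.7 and 7.23 FPKM and fell 3.15-fold. Each of these collagens was above growing at day 13 of H3.3cs1. COL5A1 and COL5A2, chains of the collagen that starts fibrils, fell 2.42-fold and 2.05-fold. Of 20 collagen genes 7 fell, the others being COL13A1 and COL15A1, and 4 fell with the same sum. COL15A1 passed the filter through growing alone.

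Collagen processing followed, with 7 of 31 genes lower and 2 with the same sum. LOXL2, which crosslinks collagen, was at 329, 132, 529 and 239.6 FPKM and fell 2.49-fold. LEPRE1, a prolyl hydroxylase, was at 91.4, 33.4, 89.6 and 89.1 FPKM and fell 2.68-fold. LEPREL1, a relative of LEPRE1 outside the list, was at 107, 18, 50.3 and 25.7 FPKM and fell 5.68-fold. SERPINH1, the collagen chaperone HSP47, fell 2.18-fold from 534 to 244 FPKM, a difference of -0.87 with the same sum. At day 13 of H3.3cs1 LOXL2 was above growing, LEPRE1 near it and LEPREL1 below it. SPARC, a matricellular protein that binds collagen, was at 1146, 441, 1945 and 482 FPKM and fell 2.59-fold. DCN (decorin), a proteoglycan of collagen fibrils, was at 391, 133, 258 and 70.5 FPKM and fell 2.93-fold. HAS2, which makes hyaluronan, was at 34, 10.7, 4.48 and 13.1 FPKM and fell 2.99-fold. At day 13 SPARC was at its highest and HAS2 at its lowest. The 4 matrix genes that rose were THBS2, SPP1, GPC6 and FMOD, of which SPP1 and FMOD passed the filter through day 3 alone. THBS2, an antiangiogenic thrombospondin, was at 4.41, 24.6, 13 and 8.91 FPKM and rose 4.73-fold. GPC6, a glypican, was at 4.92, 13, 1.09 and 3.19 FPKM and rose 2.37-fold. Among 22 integrin and laminin genes NID1, NID2 and ITGB3 fell and were within 2-fold with the same sum, and LAMA4 (6.45, 17.8, 9.41 and 25.1 FPKM) rose.

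The plasminogen system, which makes the clot-dissolving protease plasmin, fell on the side of activators and receptor. PLAT (tissue plasminogen activator) was at 111, 22.7, 67.8 and 2242 FPKM and fell 4.75-fold. PLAU (urokinase) was at 354, 87.6, 143 and 2214 FPKM and fell 4.01-fold. PLAUR, the urokinase receptor, was at 135, 39.2, 52.2 and 189 FPKM and fell 3.37-fold. In all 3 the day 3 value was the lowest of the 4 libraries. F3, tissue factor of the clotting cascade, was at 129, 33.9, 317 and 344 FPKM and fell 3.72-fold. SERPING1, the C1 inhibitor, was at 1.74, 7.89, 16.2 and 2.86 FPKM and rose 3.24-fold, and it was the 1 gene of 11 compared in the complement list to change. Of 22 genes in the plasminogen and serpin list 6 fell and 1 rose, against 4.18% and 1.48% of all genes.

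Of 24 matrix proteases and their inhibitors 5 fell and 2 rose, against 4.18% and 1.48% of all genes. MMP1, interstitial collagenase, was at 416, 52.9, 108 and 7849 FPKM and fell 7.73-fold. MMP1 was thus far apart in the treated libraries, lowest at day 3 and highest in OIS. The others that fell were ADAMTS6, MMP17, ADAMTS1 and ADAMTS12, of which the last 2 were within 2-fold with the same sum. MME and MMP15 rose, the latter from 1.75 to 6.0 FPKM.

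**Figure D5:**
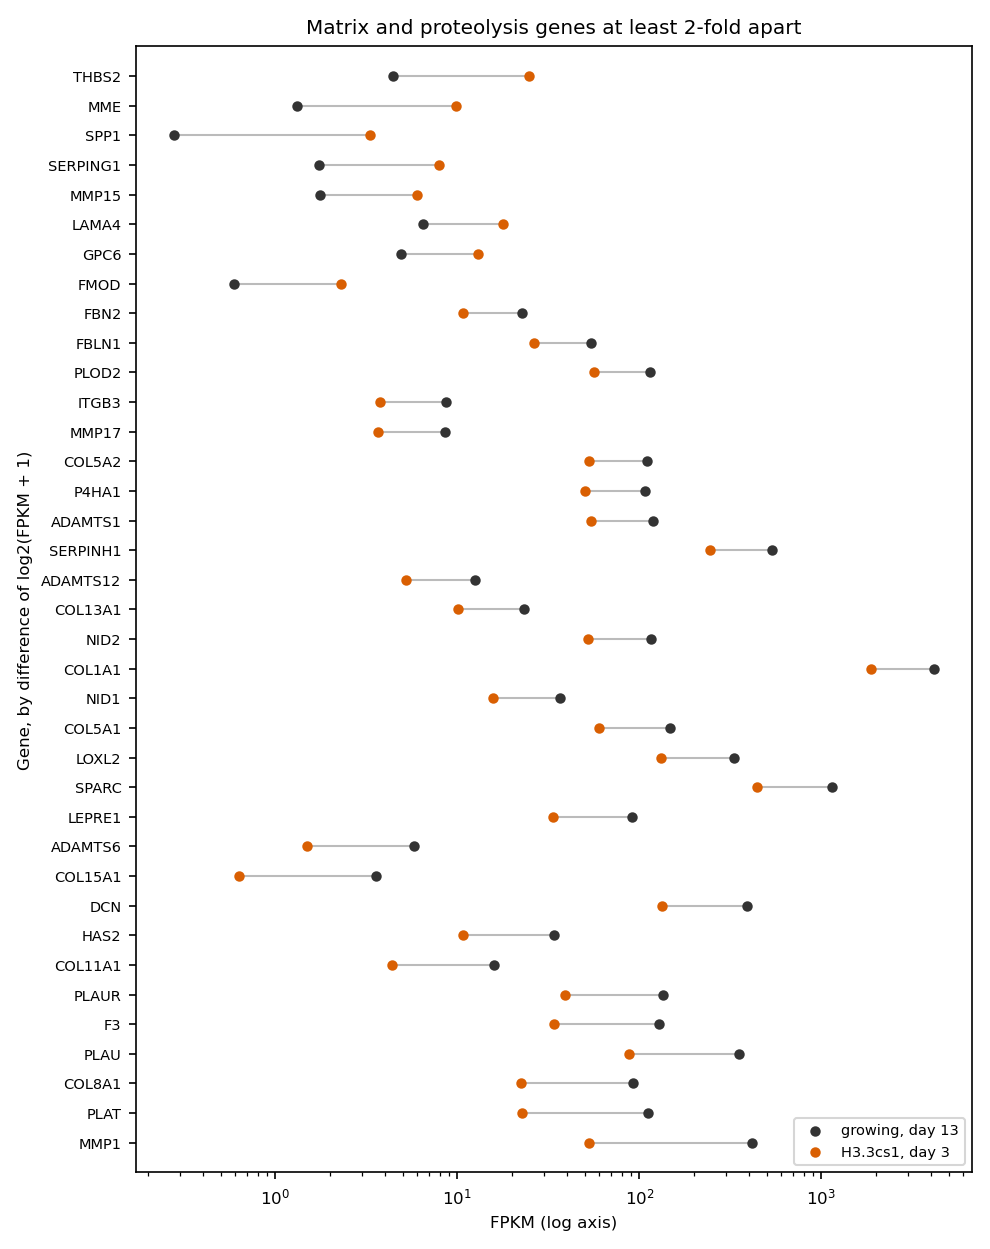
Shown are 37 matrix and proteolysis genes at least 2-fold apart, with FPKM on a log axis, growing in black and H3.3cs1 day 3 in orange, 1 library each. Most lie lower at day 3, with MMP1 the widest fall, and SPP1, MME and THBS2 have the widest rises among the 8 that lie higher.

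Few contractile genes changed, and some TGF-beta and YAP response genes fell. Both groups are known as marks of activated fibroblasts. Of 34 actin, myosin and contractile genes 32 lay below 0, while 46.6% of all genes lay above 0. In this list 2 fell and 1 rose, where 4.18% of all genes fell and 1.48% rose. The median was -0.51, and -0.25 with the same sum. ACTA2, smooth muscle actin, was at 392, 128, 608 and 62.3 FPKM and fell 3.06-fold. MYOCD (myocardin), a coactivator of smooth muscle genes, was at 2.96, 0.647, 1.33 and 0.571 FPKM and fell 2.41-fold. ACTC1 rose from 0.116 to 1.66 FPKM. It passed the filter through day 3 alone, and MYOCD passed it through growing alone. Of 28 TGF-beta and YAP response genes 6 fell and 1 rose, and with the same sum 4 fell. CTGF was at 366, 149.8, 1267 and 197 FPKM and fell 2.44-fold. CYR61 was at 339.5, 135, 429.7 and 119.7 FPKM and fell 2.51-fold. After quantile normalization the differences of CTGF and CYR61 were -0.93 and -0.97, short of 2-fold. ID2, an inhibitor of helix-loop-helix factors, rose 2.17-fold, at 54.3, 119, 38 and 4.81 FPKM.

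Some genes of amino acid supply were also lower. Of 28 ATF4 targets and genes of amino acid supply 7 fell and 1 rose, against 4.18% and 1.48% of all genes, with a median of -0.85, and with the same sum 4 fell. SLC7A5, the transporter of large amino acids, was at 93.8, 23.5, 66.6 and 24.3 FPKM and fell 3.86-fold. PHGDH, the entry enzyme of serine synthesis, was at 54.2, 18, 22.4 and 11.6 FPKM and fell 2.91-fold. ASNS, asparagine synthetase, was at 31.1, 11.5, 26.1 and 7.74 FPKM and fell 2.56-fold. The day 3 values of all 3 were below those of day 13. CHAC1, which degrades glutathione, was at 42.9, 10.8, 18.2 and 64.2 FPKM and fell 3.74-fold, and NUPR1, a stress coregulator of the same list, rose, at 32.5, 68.4, 71.7 and 4.98 FPKM. Among 19 genes of the unfolded protein response 18 lay below 0 with a median of -0.62 (-0.37 with the same sum). Over all genes 46.6% lay above 0. MANF fell 2.3-fold, the 1 gene of the list to fall, and with the same sum 0 fell, so the share that fell was near the 4.18% of all genes. HSPA5 (BiP), the main chaperone of the endoplasmic reticulum, was at 342, 173, 311 and 310.0 FPKM, a difference of -0.98. SLC2A1, the glucose transporter GLUT1, was at 94.7, 31.7, 169 and 22.8 FPKM and fell 2.92-fold, 1 of 3 falls among 30 genes of glycolysis and hypoxia. With the same sum 1 gene of that list fell, and its median went from -0.20 to 0.05. Among splicing factors 22 of 23 lay below 0, with a median of -0.67 and of -0.41 with the same sum. HNRNPH1 fell 2.17-fold, with a difference of -0.86 with the same sum, where 0 genes of that list fell.

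Lists of basic cell machinery had no gene at least 2-fold apart. They were the 56 ribosomal protein genes (median -0.22, and 0.04 with the same sum), 45 respiratory chain genes (median -0.01, and 0.25), 31 proteasome genes (median -0.11, and 0.15), 26 housekeeping genes (median -0.14, and 0.12) and 18 aminoacyl-tRNA synthetase genes (median -0.33, and -0.08). The sign of the first 4 medians thus turned with the scale. Heat shock genes had 1 of 17 higher, against 1.48% of all genes. It was CRYAB, a small heat shock protein, at 4.4, 13.3, 42.3 and 1.11 FPKM. Of 6 metallothionein and zinc genes MT1E and MT2A fell 2.2-fold and 2.16-fold, and neither was past 2-fold with the same sum. Of 21 transcription factors of fibroblasts and lung mesenchyme 1 fell, PRRX2 (15.2, 5.31, 3.28 and 8.59 FPKM), a share near the 4.18% of all genes.

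Cell type markers showed fibroblasts in all 4 libraries. The 15 compared fibroblast markers summed to 13048, 8478, 13998 and 7340.4 FPKM and those of epithelium to 91.3, 72.5, 185 and 22.2 FPKM. Of 16 epithelial markers 4 were compared, of which KRT19 (2.33, 10.9, 3.13 and 0.16 FPKM) and CLDN4 (1.54, 4.25, 0.90 and 3.9 FPKM) rose. KRT18 (80, 50.9, 170 and 13.1 FPKM) and KRT8 (7.5, 6.5, 10.1 and 5.08 FPKM) were lower at day 3, with differences of -0.64 and -0.18. KRT18 made up most of the epithelial sum in growing and at day 3. CDH1, the epithelial cadherin, was at 0.0172 FPKM at day 3, and ESRP1 and GRHL2 were listed at 0. Of 12 endothelial markers the 3 compared summed to 10.0, 8.85, 31.2 and 19.2 FPKM, with PECAM1 and CDH5 listed at 0 at day 3. That sum leaves out CLDN5 and TIE1, which were below the filter and stood at 11.6 and 4.05 FPKM in OIS. The 1 leukocyte marker compared, CD4, was at 12.5, 8.67, 11.2 and 18.6 FPKM, and TYROBP was listed at 0 at day 3. The 9 muscle and pericyte markers compared summed to 609.9, 353, 617 and 166 FPKM, of which ACTG2 made up the largest part (462, 242, 507 and 63 FPKM). Their part in the results was not tested.

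A value of 0 was not read as loss of a gene. PLEC, which encodes the linker protein plectin, was listed at 128, 0, 133 and 0 FPKM, and ARHGEF12, an activator of RhoA, at 21.8, 0, 16.7 and 32.3 FPKM. Among the genes at least 2-fold apart 40 were listed at 0 in 1 of the libraries and 29 were joined loci. By the start of their name, 54 were short RNAs, which poly(A) libraries measure poorly. Short RNAs gave the largest falls of joined loci, such as that of MIR1248 with SNORA81 from 737 to 13.9 FPKM.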

How the data were processed

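The authors deposited 1 FPKM value per locus and library. Per the submitters' processing notes, the build was hg19 and the tools were Cufflinks 2.1.1, TopHat2 2.0.3 and Bowtie2, with their roles unstated. For counts of reads, use of strand, the handling of repeated sequence and any normalization across libraries, the answer is not given in the sources used here.

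From these values, with Python 3.11.15, pandas 2.3.3 and numpy 2.4.6, lines of a symbol were summed, 2310 unnamed of 26468 locus lines were left out, 586 joined loci were kept under their joined names, and genes at 1 FPKM or more in either library were compared as log2(FPKM + 1). The size rule was 2-fold. With 1 library a group there was no test, and the rule was checked on simulated data. Counting depth was not given, so no interval is printed.

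The members and 58 gene lists were chosen with earlier results of these data known. Named are the 15 largest rises and falls (above 0 in both libraries, at least 5 FPKM in the higher, without short, uncharacterised or joined loci), up to 3 joined loci a direction, up to 6 members a list, up to 5 genes of at least 20 FPKM listed at 0 in 1 library, and H3F3A, H3F3B, CTSL1, HRAS, CDKN1A, CDKN2A, CDKN2B, RB1, LMNB1, IL6 and IL8. Named outside this rule, after their values were seen, are FOXM1, CCNB1, HNRNPH3, HIRA, DAXX, ATRX, COL5A2, MMP17, DPP4, IGFBP6, ID2, NQO1, GCLM, ISG15, PARP9, DTX3L, NRXN3, NUPR1, VAT1, markers of other cell types and the genes of the closing section. Promoters were matched by symbol or synonym to RefSeq (GRCh38.p14). In all, 11 alternatives were tried, covering the scale, the pseudocount, the filter, the fold threshold, genes listed at 0, joined loci and repeated symbols. The values of some genes are not reported here.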

Additional observations from a re-analysis of the deposited data

Results flagged for a closer look

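Some genes differed from growing by at least 2-fold in opposite directions at day 3 and day 13 of H3.3cs1. Both differences use the same growing library, each rests on 1 library, and the difference between the days was not tested. Below growing at day 3 and above it at day 13 were IGFBP7 (log2 differences of -1.77 and 2.52), EDN1 (-2.18 and 2.41), IGFBP2 (-1.55 and 2.37), COL11A1 (-1.66 and 2.34), CTGF (-1.28 and 1.79), IGFBP3 (-3.01 and 1.79), ADAMTS12 (-1.13 and 1.39), GDF6 (-1.28 and 1.34), F3 (-1.90 and 1.29) and COL8A1 (-2.01 and 1.13). Above growing at day 3 and below it at day 13 were HMOX1 (2.34 and -1.08) and GPC6 (1.25 and -1.50).

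Among loci without a gene name, which no comparison used, XLOC_014532 stood at 55096 FPKM at day 3, against 17380 in growing, 15662 at day 13 and 42146 in OIS.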

How the results depend on the processing

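The count of genes at least 2-fold higher moved by over 1.5 times with a pseudocount of 0.1 (382), an FPKM of at least 5 (112), the same sum (316) and a 3-fold rule (48). The count lower was within 1.5 times of 483 under all of these but the 3-fold rule (173), with 662, 414 and 338. Centring on the median gave 182 higher and 458 lower, and quantile normalization 183 and 420. No filter gave 171 and 483, and leaving out genes listed at 0 or joined loci gave 155 and 459, and 166 and 459. The share higher among changed genes was 36.6% with a pseudocount of 0.1 and 48.3% with the same sum, against 26.1%. No named gene turned direction while past 2-fold. Of the 352 named genes, 37 crossed 2-fold with the same sum, 27 with quantile normalization and 25 with a pseudocount of 0.1. Where a list median changed sign with the same sum, both values stand beside the list in the report, apart from the lists of complement (-0.20 and 0.05), TGF-beta and BMP (-0.12 and 0.13), ERK output (-0.05 and 0.20), matricellular proteins (-0.03 and 0.21), prostaglandin, vasoactive and NAD genes (-0.10 and 0.08) and endothelial markers (-0.06 and 0.13). Leaving out a replicate was not run, since each group has 1 library. No paired analysis was possible because each group has 1 library. Depth is known only relative to growing, and genes near 1 FPKM rest on few fragments. The median difference was -0.07 in the shortest quartile of transcripts and 0.05 in the longest (88.6% of genes matched), and over 5 groups by level it was 0.08 in the lowest and -0.17 in the highest.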

Other observations

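Genes chosen after their values were seen add to the picture of day 3. TUBA1B, a tubulin of the spindle and cytoskeleton, was at 782, 272, 357 and 285 FPKM and fell 2.87-fold. The tubulin genes TUBB2B, TUBB4B, TUBA1C and TUBB fell 2.75-fold, 2.45-fold, 2.16-fold and 2.14-fold, while TUBB6, TUBB2A, TUBA1A, TUBB3 and TUBA4A were within 2-fold. HOX genes mark position along the body axis. HOXA5 was at 9.04, 20.4, 5.41 and 4.23 FPKM, HOXB8 at 0.493, 4.52, 1.01 and 1.86 FPKM and HOXA7 at 0.293, 3.21, 0.605 and 0.714 FPKM. Each rose by 2-fold or more, and its day 3 value was the highest of the 4 libraries. HOXB8 and HOXA7 were below 1 FPKM in growing, so they passed the filter through day 3 alone. Other HOX genes were not counted, so these values do not describe HOX genes as a group.

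RRAGC, a Rag GTPase that brings mTORC1 to lysosomes, was at 13.2, 38, 17.9 and 12.5 FPKM and rose 2.76-fold. GPNMB, a lysosomal glycoprotein, was at 0.0902, 3.72, 0.512 and 0.572 FPKM and rose 4.33-fold. GNPDA1, of amino sugar metabolism, was at 14.5, 39.9, 12.1 and 14.2 FPKM and rose 2.65-fold, and FLCN (folliculin), which acts on the Rag GTPases, was at 12.1, 20.2, 11.1 and 10.1 FPKM, a difference of 0.69. RRAGC, GPNMB and GNPDA1 were higher at day 3 than in any of the other 3 libraries.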
